A study of Mus musculus with 8 samples.

Results

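The ATP-binding cassette exporters Abca1, Abcg1, Abcg5 and Abcg8 were followed in mouse liver across 4 groups of animals. Every probe set (a group of short array probes for 1 transcript) whose symbol in the platform annotation is one of these names was taken, which gave 6 of 22626 probe sets: 3 for Abca1 (1421840_at, 1421839_at and 1450392_at) and 1 each for Abcg1 (1423570_at), Abcg5 (1419393_at) and Abcg8 (1420656_at). All 6 passed the filter on dim probe sets. Liver RNA from 8 mice was hybridised, 1 array per mouse and 2 arrays per group. The animals of every group were on C57B6 and were 8 months old after 12 weeks of Western diet. When 10 weeks old, each had been given an adeno-associated virus, AAV2.8, whose transgene was driven by the liver specific human promoter of thyroxine binding globulin, a promoter used to reach hepatocytes. The groups were LXRα T0901317 (human LXRα transgene, agonist), GFP T0901317 (control transgene, agonist), LXRα vehicle and GFP vehicle. T0901317 is a synthetic agonist of the liver X receptors that also activates the pregnane X receptor; it was injected intraperitoneally at 5 mg/kg for 3 days, as was vehicle for the same time. The receptor was thus added on top of the animals' own, and the agonist also reaches liver cells without the transgene. Nothing in the labels says how many litters or cohorts the mice came from, so how far p-values hold beyond these animals is not known. They take the mice as independent, which could not be checked. They rest on the spread between arrays of a group, shared over the 4 groups and moderated by that of other probe sets. That spread holds differences in RNA quality as well as between animals.

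Liver X receptors are nuclear receptors for oxysterols that bind DNA with the retinoid X receptor and switch on genes that remove cholesterol. Abcg5 and Abcg8 join into 1 complex at the bile canaliculus that passes cholesterol and plant sterols into bile, and neither works without the other. Abca1 loads cholesterol and phospholipid onto apolipoprotein A-I, the first step of HDL formation. Abcg1 moves sterol on toward HDL particles and is best known from macrophages. All 4 are textbook LXR targets.

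The genes lie on chromosome 4 (Abca1, 53030789 to 53159988) and chromosome 17 (Abcg1, 31057694 to 31117984; Abcg5, 84658174 to 84683011; Abcg8, 84676302 to 84700333), as RefSeq gives them on GRCm38.p6. Abcg5 and Abcg8 stand head to head on opposite strands, and their annotated spans overlap. The RefSeq promoter table held 1 start site for Abcg5 and 2 for Abcg8. The Abcg8 start at 84683121 lay 110 bases from that of Abcg5, and the windows from 250 bases before to 50 after these starts shared 209 bases. The other Abcg8 start, at 84676302, lies within the span of Abcg5, and its window (chr17:84676052-84676351) is not shown. RefSeq promoter windows were at hand for 3 of the 4 genes. The windows of Abca1 (chr4:53159846-53160145, minus strand) and Abcg8 (chr17:84682871-84683170, plus strand) are shown because the first carries the LXR element and the second is also most of the promoter of Abcg5, read from the other strand. Capitals mark TGACC and TAACC with any 5 bases between them, the form of the known LXR element of Abca1, in the Abca1 window, and GATAA on either strand in the Abcg8 window.
Abca1: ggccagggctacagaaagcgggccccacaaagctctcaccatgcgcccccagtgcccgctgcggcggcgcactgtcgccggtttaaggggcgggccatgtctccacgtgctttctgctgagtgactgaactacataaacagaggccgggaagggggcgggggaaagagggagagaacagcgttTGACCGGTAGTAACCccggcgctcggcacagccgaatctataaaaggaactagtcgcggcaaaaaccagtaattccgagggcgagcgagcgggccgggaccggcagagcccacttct
Abcg8: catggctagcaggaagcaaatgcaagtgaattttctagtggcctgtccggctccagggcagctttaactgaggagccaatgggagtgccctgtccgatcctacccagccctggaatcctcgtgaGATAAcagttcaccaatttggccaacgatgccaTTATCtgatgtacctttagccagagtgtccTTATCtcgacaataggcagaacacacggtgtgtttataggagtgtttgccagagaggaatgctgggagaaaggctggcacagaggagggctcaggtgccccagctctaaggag

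The element in the Abca1 window began 67 bases before the start, at position -67, and 16 of 32851 promoter windows of the same length (0.0487%) held a match on either strand. Because the pattern searched is the known element of this promoter, its match in the Abca1 window was fixed in advance. The same window held 1 E-box (CACGTG, at -147), found in 7.15% of windows, and 2 GC boxes (GGGCGG), found in 35.7%. The Abcg8 window shown held 3 matches to GATAA, at -126, -93 and -63 from its start, and 25.4% of windows held at least 1. The other Abcg8 window held no match to any motif searched. GATA factors are known to act on the human counterparts of this gene pair. No window of Abca1, Abcg5 or Abcg8 held AGGTCA repeated with any 4 bases between, an ideal LXR repeat present in 0.0152% of windows, or the lone AGGTCA present in 16.3%. Each motif was searched on both strands, and the longer repeat contains the shorter one. These matches describe the letters of the windows and nothing was measured on them here.

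Some facts of the arrays bear on every value below. The β-actin 3'/5' ratio, a sign of RNA quality that is high where RNA is broken or incompletely copied, was 2.75 and 36.3 in LXRα T0901317 livers and 7.56 and 11.04 in those given T0901317 with GFP, against 2.61 and 3.08 in LXRα vehicle and 2.21 and 2.08 in GFP vehicle livers. Thus 3 of the 4 agonist arrays stood apart from every vehicle array, and LXRα T0901317 replicate 1 lay among the vehicle arrays by this ratio. Its Gapdh ratio of 1.27 was nonetheless above the 1.06 to 1.16 of the vehicle arrays, and the 18S signal was 11.8 to 45.3 on all 4 agonist arrays, against 245 to 638 on the vehicle arrays. Median intensities were 21.0 to 23.2, and 2 arrays of a group correlated at r = 0.949 to 0.978. Mouse Nr1h3, which encodes LXRα, gave 62.6 to 218 on the LXRα arrays and 75.8 to 170.0 on the GFP arrays. Its probes were made for the mouse transcript, so this is no check of the human transgene. Hepatocyte markers were bright (Alb, albumin, 19677 to 31022). A floor of 7.50 was set under all intensities. Of the cholangiocyte markers with a probe set, Krt19 (9.48 to 11.8), Krt7 (8.10 to 9.95) and Epcam (8.52 to 13.2) lay near it and Sox9 (36.6 to 61.8) above it. Of the enterocyte markers Vil1 (7.55 to 9.24) lay near it, while Fabp2 (279 to 1104) and Apoa4 (2063 to 18593) were bright on every array. Apoa4 was also on the list of HDL genes used below, and whether gut cells were present was not tested.

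Abcg5 and Abcg8 were lowest in GFP vehicle livers and higher in all the other groups. Abcg5 had intensities of 2278 and 1652 in LXRα T0901317 livers, 1709.6 and 1410.1 with GFP and T0901317 and 1509 and 790.3 in LXRα vehicle livers, against 484 and 448 in GFP vehicle livers. Abcg8 had 497 and 377 in LXRα T0901317 livers, 386 and 325 with GFP and T0901317 and 355 and 247 in LXRα vehicle livers, against 126 and 107 in GFP vehicle livers. For both genes every array with the transgene, the agonist or both lay above both GFP vehicle arrays. The order of the group means was the same for both genes: LXRα T0901317, GFP T0901317, LXRα vehicle, GFP vehicle. Arrays of neighbouring groups overlapped at the upper 2 steps of that order and did not at the lowest.

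**Figure D1:**
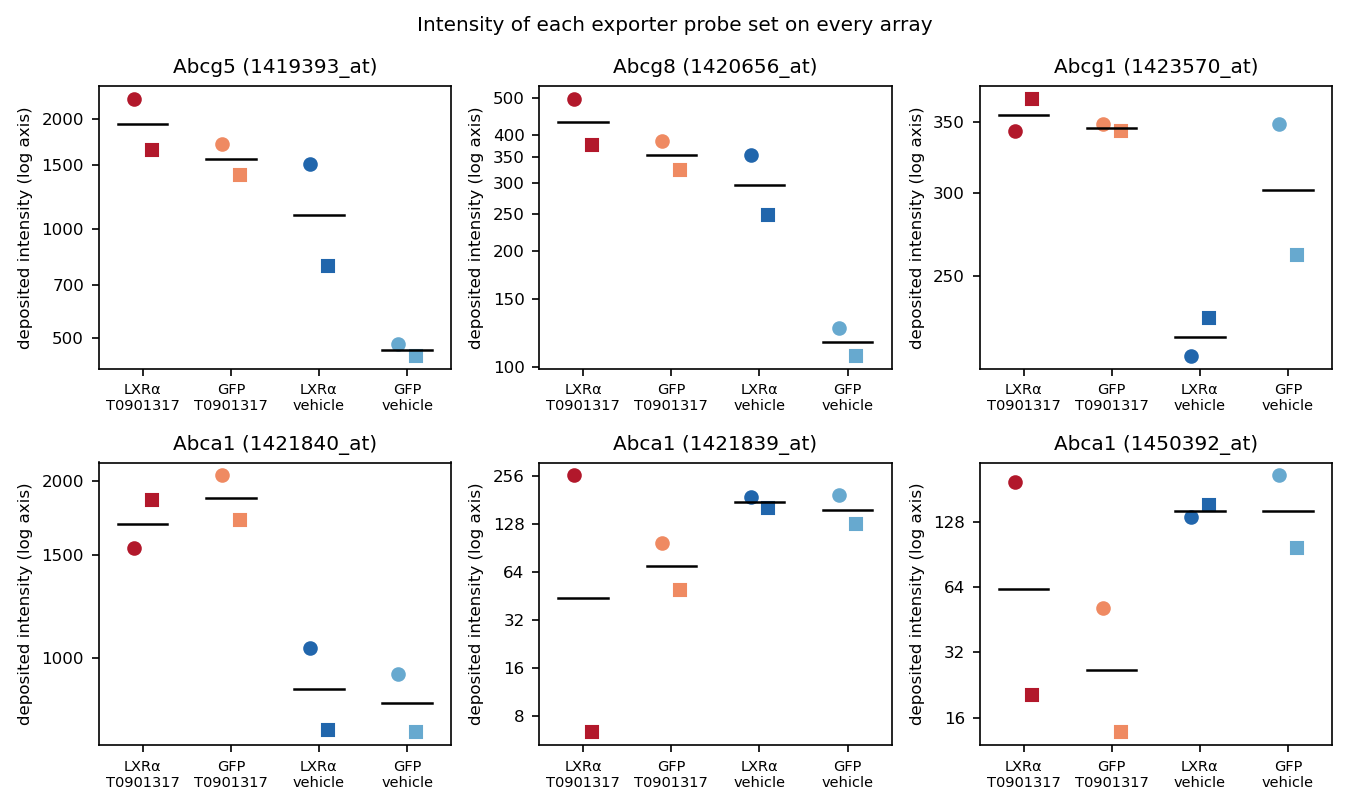
Deposited intensity (log axis) of each exporter probe set on all 8 arrays by group; circles are replicate 1, squares replicate 2, and bars the group mean of log2 values, with values under 7.50 raised to that floor for the mean. Abcg5 and Abcg8 were lowest on the 2 GFP vehicle arrays, Abca1 1421840_at was at least 1539 on every T0901317 array and at most 1040.4 on every vehicle array, and the other Abca1 probe sets spread widely in T0901317 livers.

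The first comparison asked whether the transgene alone moved the exporters. In LXRα vehicle over GFP vehicle livers, Abcg8 was 2.55-fold higher, or 1.35 on the log2 scale (SE 0.28, adjusted p from limma = 0.580), and Abcg5 was 2.35-fold higher, or 1.23 on that scale (SE 0.35, adjusted p = 0.774). Mean log2 intensities of Abcg8 were 8.21 ± 0.37 in LXRα vehicle and 6.86 ± 0.17 in GFP vehicle livers (SD, n = 2 each), and those of Abcg5 were 10.09 ± 0.66 and 8.86 ± 0.08 in the same groups (SD, n = 2 each). Neither passed the test over all probe sets, although by p-value Abcg8 ranked 48 and Abcg5 ranked 201 of 15838 probe sets tested. Without LXRα vehicle replicate 1 the Abcg5 difference was 0.76. Abca1 1421840_at, its brightest probe set, differed by 0.08 (SE 0.26, 95% interval -0.55 to 0.71). In this comparison 0 of 6 exporter probe sets were called at an adjusted p under 0.05, where limma called 0.00631% of all probe sets, and 2 of 6 had an unadjusted p under 0.05, as did 5.15% of all. Groups did not overlap, with the LXRα group higher, for 2 of 6, a share near the 30.9% of all probe sets, and with the LXRα group lower for 1 of 6 (Abcg1), against 13.5% of all.

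The second comparison set agonist against vehicle in livers with the control transgene. Both agonist arrays had higher β-actin 3'/5' ratios (7.56 and 11.04) than both vehicle arrays (2.21 and 2.08). Agonist and RNA quality therefore cannot be told apart in it. In GFP T0901317 over GFP vehicle livers, Abcg5 was 3.33-fold higher, or 1.74 on the log2 scale (SE 0.35, adjusted p = 0.167), and Abcg8 was 3.05-fold higher, at 1.61 (SE 0.28, adjusted p = 0.146). Abca1 1421840_at was 2.24-fold higher, at 1.17 (SE 0.26, adjusted p = 0.189). Of the 6 probe sets 0 were called, where limma called 0% of all, and 3 had an unadjusted p under 0.05, against 13.2% of all. Groups did not overlap for 5 of 6: 3 were higher with the agonist, against 23.2% of all probe sets, and 2 were lower, both of Abca1, against 35.2%. This comparison and the first share the GFP vehicle arrays.

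In livers with the LXRα transgene, the differences of Abcg5 and Abcg8 between agonist and vehicle were smaller. In LXRα T0901317 over LXRα vehicle livers Abcg5 differed by 0.83 (SE 0.35, adjusted p = 0.378) and Abcg8 by 0.54 (SE 0.28, adjusted p = 0.428). Gapdh 3'/5' ratios were 1.27 and 19.7 on these agonist arrays and 1.16 and 1.14 on these vehicle arrays. The 18S signal was 45.3 and 33.8, against 245 and 488. Agonist and RNA quality therefore cannot be told apart here either. The interaction, the agonist difference in LXRα livers minus that in GFP livers, was -1.06 for Abcg8 (SE 0.40, 95% interval -2.0 to -0.12, adjusted p = 1.00) and -0.91 for Abcg5 (SE 0.49, 95% interval -2.08 to 0.26, adjusted p = 1.00). Smaller agonist differences in LXRα livers were therefore not shown over all probe sets. These values turned on single arrays: without LXRα vehicle replicate 1 the agonist difference in LXRα livers was 1.30 for Abcg5 and 0.81 for Abcg8, without LXRα vehicle replicate 2 it was 0.36 and 0.28, and without LXRα T0901317 replicate 1 that of Abcg8 was 0.34. The Abcg5 interaction was -0.44 without LXRα vehicle replicate 1 and -1.38 without replicate 2. Abca1 1421840_at had an interaction of -0.23 (SE 0.37), with differences of 0.94 in LXRα livers and 1.17 in GFP livers. In the LXRα livers 0 of 6 were called, against 0.0253% of all probe sets, and 3 had an unadjusted p under 0.05, against 13.2%. Groups did not overlap for 4 of 6, all higher with the agonist, against 20% of all, and none was lower, against 28.4% of all. For the interaction 0 of 6 were called, against 0.00631% of all, and 1 of 6 had an unadjusted p under 0.05, against 4.77%.

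Between both agonist groups the brighter exporter probe sets lay close together. LXRα T0901317 minus GFP T0901317 was 0.32 for Abcg5 (95% interval -0.51 to 1.15), 0.29 for Abcg8 (-0.38 to 0.95), 0.04 for Abcg1 (-0.50 to 0.59) and -0.15 for Abca1 1421840_at (-0.78 to 0.48). The arrays overlapped for all 6 probe sets, whereas 10.6% of all probe sets were higher in LXRα T0901317 livers without overlap and 8.72% lower. Here 0 of 6 were called, against 0% of all, and 0 of 6 had an unadjusted p under 0.05, against 2.24%. These intervals still allow a change of over 0.9 on the log2 scale for Abcg5 and Abcg8, so equal levels were not shown.

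**Figure D2:**
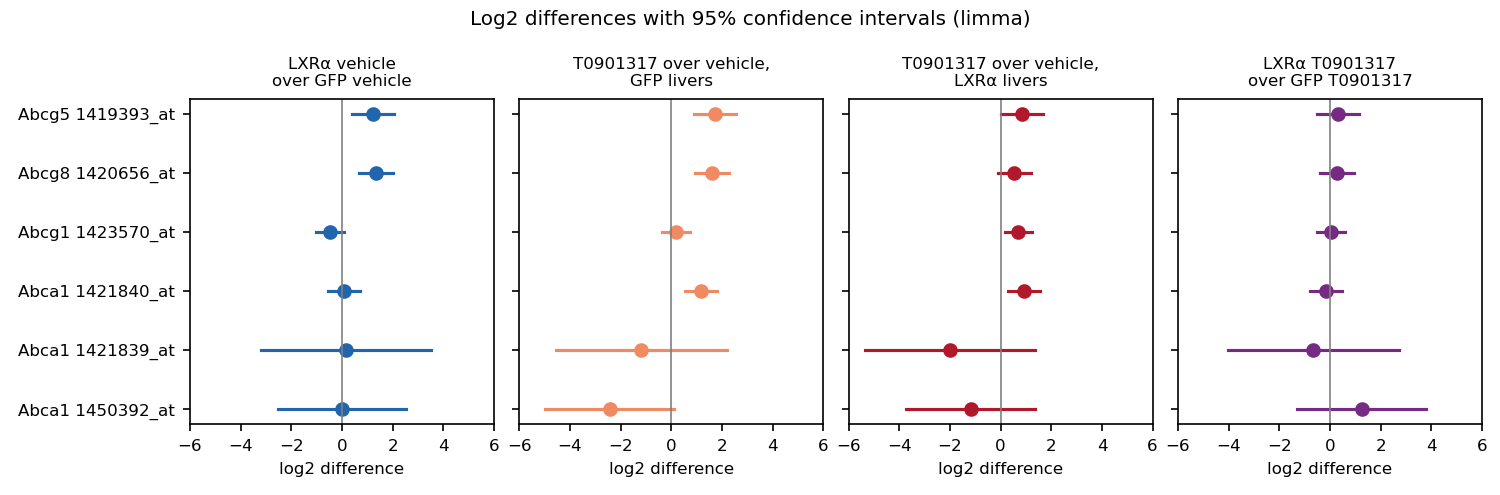
Log2 difference (point) and its 95% confidence interval from limma (line) for each exporter probe set in the 4 simple comparisons, in the direction each panel names. Abcg5 and Abcg8 lie at 1.23 and 1.35 for the transgene alone and at 1.74 and 1.61 for the agonist in GFP livers; the lower Abca1 rows have intervals several log2 units wide.

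Averaged over both transgenes, T0901317 minus vehicle was 1.28 for Abcg5 (SE 0.25, adjusted p = 0.0728), 1.08 for Abcg8 (SE 0.20, adjusted p = 0.0690), 1.05 for Abca1 1421840_at (SE 0.19, adjusted p = 0.0690) and 0.45 for Abcg1 (SE 0.16, adjusted p = 0.182). None of the 6 was called, where limma called 90 of 15838 (0.568%), 68 of them higher (0.429%) and 22 lower (0.139%); with each array centred on its median it called 111, of which 95 were higher. At an unadjusted p under 0.05 there were 5 of 6, against 23.2% of all. Among these, Abca1 1450392_at was lower, at -1.81, and the others were higher. All 4 agonist arrays lay above all 4 vehicle arrays for 1 probe set, Abca1 1421840_at, as they did for 8.2% of all probe sets; no exporter lay wholly below, against 8.44% of all. Without LXRα T0901317 replicate 1, Abca1 1421840_at was higher by 1.12 and Abcg8 by 0.98, and Abca1 1421839_at and 1450392_at were at -2.86 and -2.62. The agonist arrays left had β-actin 3'/5' ratios of 7.56 to 36.3, against 2.08 to 3.08 on the vehicle arrays. Agonist and RNA quality therefore cannot be told apart in that fit. For 1421839_at, 1 of these arrays lay under the floor (6.30). Nor can agonist and RNA quality be told apart in the full fit. There the Gapdh 3'/5' ratio was at least 1.27 on every agonist array and at most 1.16 on every vehicle array, and the 18S signal also set these arrays apart. With the log2 β-actin ratio as a covariate the differences were 1.57 for Abcg5, 1.31 for Abcg8 and 0.94 for Abca1 1421840_at (adjusted p of 0.114 to 0.123). These lean on LXRα T0901317 replicate 1, the only agonist array with a ratio (2.75) among those of the vehicle arrays.

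Abcg5 and Abcg8 moved together from array to array. Each array's log2 change from the GFP vehicle mean was 2.29 for Abcg5 and 2.10 for Abcg8 on LXRα T0901317 replicate 1, and 1.83 and 1.70 on replicate 2. It was 1.88 for Abcg5 and 1.73 for Abcg8 on GFP T0901317 replicate 1, and 1.60 and 1.48 on replicate 2. In LXRα vehicle livers it was 1.70 for Abcg5 and 1.61 for Abcg8 on replicate 1, and 0.76 and 1.09 on replicate 2. So the livers that were higher within a group for one gene were also the higher ones for the other, in each of the 4 groups. The change of Abcg5 minus that of Abcg8 ranged from -0.33 to 0.19 over the 8 arrays (SD 0.17), while each gene ranged over more than 2.2 log2 units. Among 9358 other genes, Abcg8 was the gene with the highest Pearson r to Abcg5 over the 8 arrays and Abcg5 the one with the highest r to Abcg8 (0.985, across arrays that share groups, a description with no test). The next most alike were Cnot7, a subunit of the CCR4-NOT deadenylase (0.974), and Nckap1, of the WAVE actin complex (0.968), for Abcg5, and Man2c1, a cytosolic mannosidase (0.969), and Sel1l3 (0.958) for Abcg8. Of the other exporters, Abca1 1421840_at stood at 0.80 and Abcg1 at 0.27 to Abcg5.

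**Figure D3:**
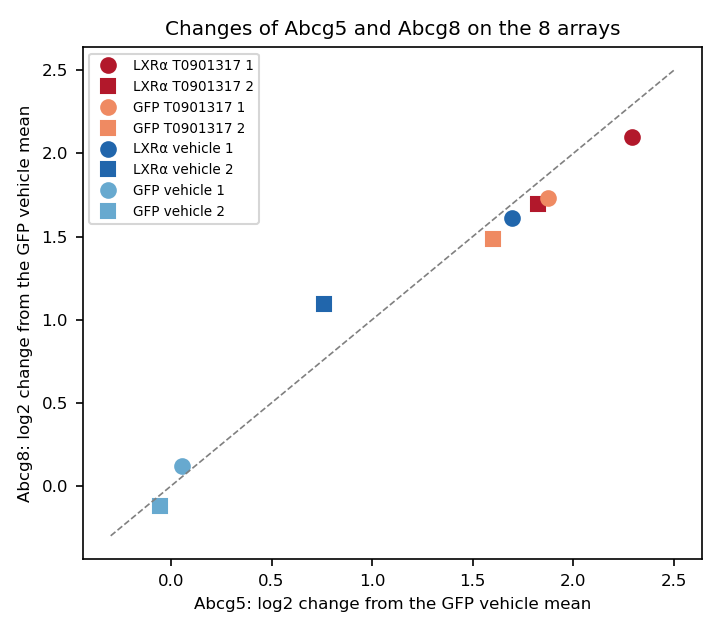
Log2 change of Abcg8 (vertical) against that of Abcg5 (horizontal) from each gene's GFP vehicle mean, 1 point per array, with the dashed line of equal change. The points follow the line, and the farthest from it is LXRα vehicle replicate 2, at 0.76 for Abcg5 and 1.09 for Abcg8.

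Abca1 gave different answers by probe set. The brightest, 1421840_at, had 1539 and 1861 in LXRα T0901317 livers and 2047 and 1718 with GFP and T0901317, against 1040.4 and 752 in LXRα vehicle and 937 and 747 in GFP vehicle livers. Both agonist groups lay wholly above both vehicle groups, and the groups of like treatment overlapped. The dimmer 1421839_at had 259 and 6.30 in LXRα T0901317 livers and 97.5 and 49.3 with GFP and T0901317, against 191 and 161 in LXRα vehicle and 194 and 127 in GFP vehicle livers. Likewise 1450392_at had 195 and 20.3 in LXRα T0901317 livers and 51.0 and 13.7 with GFP and T0901317, against 134 and 152 in LXRα vehicle and 209 and 97.2 in GFP vehicle livers. For both dimmer probe sets, GFP T0901317 arrays and LXRα T0901317 replicate 2 lay below every vehicle array, and LXRα T0901317 replicate 1 lay among or above them. The value of 6.30 was under the floor of 7.50.

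The 3 arrays on which the dimmer Abca1 probe sets were low are the 3 with the highest β-actin 3'/5' ratios. The agonist difference averaged over transgenes was -1.58 for 1421839_at (SE 1.00, adjusted p = 0.339) and -1.81 for 1450392_at (SE 0.76, adjusted p = 0.214). With the log2 β-actin ratio as a covariate it was 1.11 for 1421839_at (SE 0.28, adjusted p = 0.114). It was -0.01 for 1450392_at (SE 0.60, adjusted p = 0.991) and 0.94 for 1421840_at. Only 1 agonist array, LXRα T0901317 replicate 1, had a ratio among those of the vehicle arrays. The covariate values lean on that array and a straight-line fit, so they cannot separate agonist from RNA quality. Without the 3 arrays, LXRα T0901317 replicate 1 against the LXRα vehicle arrays gave 0.57 for 1421839_at and 0.45 for 1450392_at. In LXRα livers, leaving out replicate 1 of the agonist group instead made 1421839_at -4.54 (adjusted p = 0.0259), the value of 1 array at the floor. Where on the transcript each probe set lies was not analysed here. The patterns closest to that of 1421840_at were those of Slc25a42, a mitochondrial coenzyme A carrier (r = 0.991 over 8 arrays), Baz1b, a chromatin remodeller (0.988), and Atp6ap1, an accessory protein of the vacuolar proton pump (0.986).

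**Figure D4:**
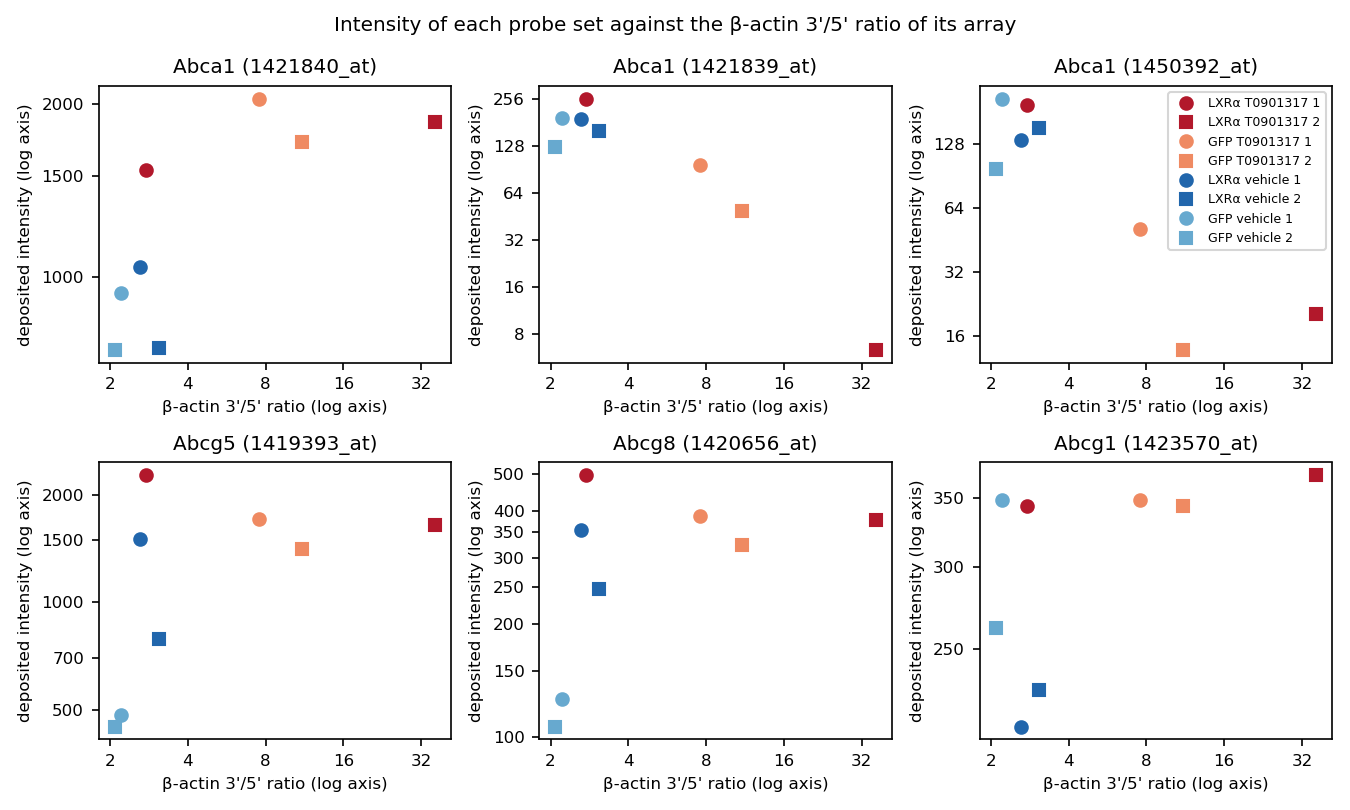
Intensity of each exporter probe set (vertical, log axis) against the β-actin 3'/5' ratio of its array (horizontal, log axis), 1 point per array, circles replicate 1 and squares replicate 2. Abca1 1421839_at and 1450392_at are lowest on the 3 arrays with ratios of 7.56 to 36.3, where Abca1 1421840_at, Abcg5, Abcg8 and Abcg1 are not.

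Abcg1 spanned the narrowest range of the 6 probe sets. It had 344 and 368 in LXRα T0901317 livers and 348 and 344 with GFP and T0901317, against 210.2 and 228 in LXRα vehicle and 349 and 262 in GFP vehicle livers. The LXRα vehicle arrays were the lowest of the 8, and GFP vehicle replicate 1 lay with the agonist arrays. T0901317 over vehicle was 1.62-fold in LXRα livers, or 0.70 on the log2 scale (SE 0.23, adjusted p = 0.296), and 1.14-fold in GFP livers, at 0.20 (SE 0.23, adjusted p = 0.692). The interaction was 0.50 (SE 0.33, 95% interval -0.27 to 1.28, adjusted p = 1.00). The LXRα transgene in vehicle livers went with -0.46 (SE 0.23, adjusted p = 0.963), opposite in sign to Abcg5 and Abcg8. Its pattern was most like those of Mfge8, which bridges phagocytes to dying cells (r = 0.981), Bgn, a matrix proteoglycan (0.963), and Atp1b1, a subunit of the sodium pump (0.955).

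Macrophages carry Abca1 and Abcg1, so their markers were set beside these values. The summed intensity of 14 macrophage and Kupffer cell markers was 5587 and 4520 in LXRα T0901317 livers and 4156 and 9712 with GFP and T0901317, against 5414 and 1802 in LXRα vehicle and 7381 and 9928 in GFP vehicle livers. All 13 that passed the filter were lower in LXRα vehicle than in GFP vehicle livers, where 59.8% of all probe sets were higher. Their median log2 difference was -1.57 (0.05 over all probe sets). By limma 0 of the 13 were called, against 0.00631% of all, and 6 had an unadjusted p under 0.05, against 5.15% of all. Cd163 lay near the floor on every array (5.69 to 13.9). Averaged over transgenes, the agonist left 9 of 13 higher with a median of 0.14 and 0 called, where 45.7% of all probe sets were higher. The largest averaged differences were -1.06 for C1qa, 0.85 for Csf1r and 0.75 for Vsig4. That average joined opposite signs. With the agonist 9 of 13 were lower in GFP livers (median -0.68), and 11 of 13 were higher in LXRα livers (median 0.82). The interaction was above 0 for 12 of 13 (median 1.28), against 46.8% of all probe sets, and 0 were called in each of these comparisons. Whole liver was measured, so fewer cells of a type and less RNA per cell cannot be told apart, and the part of macrophages in the Abcg1 and Abca1 values was not tested. The endothelial sum was 847 and 835 in LXRα T0901317 livers and 934 and 664 with GFP and T0901317, against 482 and 343 in LXRα vehicle and 562 and 549 in GFP vehicle livers. Of 7 endothelial markers 6 were higher with the agonist averaged over transgenes (median 0.44), against 45.7% of all probe sets (median -0.04). By limma 1 of the 7 was called, against 0.568% of all. This was Lyve1, the hyaluronan receptor of sinusoids, which rose by 2.05 (SE 0.29, adjusted p = 0.0489). Of 6 hepatocyte markers 2 were higher (median -0.15, 0 called), led by Tat at -0.79, Cps1 at 0.49 and Cyp2e1 at -0.30. The cholangiocyte markers that passed the filter were Epcam (-0.06) and Sox9 (0.02), and the enterocyte markers Apoa4 (-0.59) and Fabp2 (0.16). Each of these pairs had 1 higher, 1 lower and 0 called.

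Other genes of sterol handling give the exporters a setting, with the agonist averaged over transgenes, where limma called 0.568% of all probe sets and their median was -0.04. Of 16 further LXR targets that passed the filter, 14 were higher, 2 rose and 0 fell by the test (median 0.57). The 2 were Rnf145, a ubiquitin ligase of the endoplasmic reticulum, by 2.01 (SE 0.17, adjusted p = 0.0206), and Cyp7a1, which starts bile acid synthesis from cholesterol, by 2.16 (SE 0.21, adjusted p = 0.0250). Cyp7a1, like Abcg5 and Abcg8, had a positive difference for the transgene alone (1.63, adjusted p = 0.580) and an interaction below 0 (-1.88, adjusted p = 0.906). Rnf145 had -0.22 and 0.62 in the same comparisons. Of the 16 targets 8 were higher with the transgene alone and 6 had an interaction below 0. The signs of Cyp7a1 were also those of Srebf1 (1.04 and -1.16), Slc10a1, of biliary secretion (0.88 and -1.61), and the hepatocyte marker Cps1 (0.89 and -0.995). None of these differences was called. Both comparisons use the vehicle groups, with opposite signs, so they are not independent. Of 15 genes of HDL formation and sterol traffic, 11 were higher and 0 called (median 0.29). Its largest differences were 1.10 for Pltp, the phospholipid transfer protein (adjusted p = 0.0762), and 1.09 for Lipa, the lysosomal acid lipase (adjusted p = 0.0997). Next was Npc2, which hands over lysosomal cholesterol (0.90, adjusted p = 0.111). Pltp, also among the LXR targets above, differed by 0.23 in GFP livers and 1.97 in LXRα livers.

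Of 10 genes of biliary secretion, 5 were higher and 5 lower, 1 rose (Cyp7a1) and 1 fell (median -0.01). The one that fell was Cyp8b1, the sterol hydroxylase that makes cholic acid, at -1.93 (SE 0.27, adjusted p = 0.0480). The calls of Rnf145, Cyp7a1, Cyp8b1 and Lyve1 belong to a contrast whose total of 90 became 0 without LXRα vehicle replicate 2, 1 without LXRα vehicle replicate 1, 1 without GFP T0901317 replicate 2 and 4 with the β-actin covariate. Relatives of the exporters in the ABCA and ABCG subfamilies split 4 higher and 3 lower of 7 that passed the filter, 0 called (median 0.02). They were led by Abcg3 (-0.49, adjusted p = 0.176), Abca2 (-0.35, adjusted p = 0.211) and Abca7 (0.29, adjusted p = 0.231). Of 13 regulators, 8 were higher and 0 called (median 0.13). The largest differences were -1.22 for Nr0b2, the corepressor SHP (adjusted p = 0.0690), 0.89 for Sp1, which binds GC boxes (adjusted p = 0.143), and -0.88 for Nr1h3 (adjusted p = 0.179).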

How the data were processed

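Values are the authors' deposited intensities, 1 per probe set and array, linear and positive as read from their range; how they were summarised and scaled was not stated in the labels. Groups came from the labels; a part of the genotype that all groups share is not reported here. Of 22690 probe sets, 64 controls stayed out of tests. Of the rest 20380 had 1 symbol, 691 several and 1555 none. Intensities were raised to 7.50 (20th percentile), log2-transformed and filtered at the 30th percentile of means, which left 15838. limma 3.58.1 in R 4.3.3 fitted 4 group means to 8 arrays (4 residual and 2.93 prior degrees of freedom, intensity trend), with Benjamini-Hochberg adjustment over all probe sets. The steps were tested on simulated data. For list genes the brightest tested probe set stood for the gene. Named list genes were those called in any contrast, otherwise the 3 with the largest averaged agonist difference. Exporters and lists were chosen with earlier results of these data known. The number of arrays limits the precision. Alternatives covered scaling, floor, filter, spread, pairing, β-actin ratio and leaving out arrays. The log2 values were computed here from the deposited intensities.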

Additional observations from a re-analysis of the deposited data

How the results depend on the processing

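No exporter probe set was called under the other settings run, 10 to 12 per comparison. Leaving out 1 array changed the count in 2 comparisons, LXRα T0901317 over LXRα vehicle and the averaged agonist difference. Both changes came without LXRα T0901317 replicate 1, a fit with 1 array in that group. Counts from such a fit are not read as a result about the exporters, because totals over all probe sets also moved widely when 1 array was left out. Abcg5 and Abcg8 kept their sign in all comparisons under these settings and omissions, but with 1 array left out the agonist difference in LXRα livers ranged from 0.36 to 1.30 for Abcg5 and from 0.28 to 0.81 for Abcg8, and that between agonist groups from 0.09 to 0.55 and from 0.09 to 0.49. Of 684 recomputed differences 656 kept their sign and side of the threshold, 5 newly passed it and 23 changed sign. The cause of the sign changes was not tested. With the β-actin covariate, Abca1 1421839_at turned to 1.70 for the agonist in GFP livers, 0.51 in LXRα livers and 1.11 averaged, and 1450392_at to 0.49 in LXRα livers. Without the 3 high-ratio arrays the agonist differences in LXRα livers turned to 0.57 (1421839_at) and 0.45 (1450392_at). For the transgene in vehicle livers, 1450392_at was -0.032 with median centring and -0.0083 with an offset. Abcg1 was -0.00018 between agonist groups after quantile normalization. With 1 array left out in turn, 1421839_at ranged from -4.54 to 0.57 for the agonist in LXRα livers, from -3.21 to 1.90 between agonist groups, from -3.36 to 1.75 for the interaction and from -0.15 to 0.46 for the transgene in vehicle livers. In the same comparisons 1450392_at ranged from -2.82 to 0.45, from -0.38 to 2.88, from -0.39 to 2.88 and from -0.55 to 0.55. The range of 1421840_at was -0.46 to 0.0051 for the interaction and -0.15 to 0.32 for the transgene in vehicle livers. Abcg1 ranged from -0.011 to 0.40 for the agonist in GFP livers and from -0.0097 to 0.090 between agonist groups. The ends of the agonist ranges of 1421839_at and 1450392_at came from omitting LXRα T0901317 replicate 1 or 2. Counts over all probe sets for the averaged agonist difference were 90, against 32 after quantile normalization, 15 without a filter, 17 with the replicate block, 4 with the β-actin covariate and 0 to 1508 when 1 array was left out. Those for LXRα T0901317 over LXRα vehicle were 4, against 0 to 14 under other settings and 0 to 474 with 1 array left out. For the other 4 comparisons, counts of 0 or 1 became at most 11 under other settings and 43 with 1 array left out. Replicate numbers are only numbers here: deviations of same-numbered arrays correlated at -0.14 to 0.25 between groups, and the replicate block called 0 exporter probe sets. Without the 3 high-ratio arrays no GFP T0901317 array remained, so comparisons that need it were not run. A fit of only the compared groups was not run for the averaged difference and the interaction, which use all 4 groups. When 1 array was left out, the spread of its lone partner was taken from the other groups.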

Other observations

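Abcg1 had the same deposited value to every digit, 343.664, on LXRα T0901317 replicate 1 and GFP T0901317 replicate 2. Identical values were found for 205 of 22626 probe sets between these arrays and for 80 to 700 probe sets over the 28 pairs of arrays, the most being between the 2 GFP vehicle arrays.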
